A study of Mus musculus with 12 samples.

Results

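The mast cell and basophil genes described here are 10 genes of mouse bone marrow-derived macrophage cultures: Fcer1a, Ms4a2, Mcpt8, Prss34, Cpa3, Cd200r3, Gata2, Kit, Il1rl1 and Hdc. They were chosen by name, as genes known from mast cells and basophils, with earlier results of these data known. Each symbol had 1 row among the 54532 genes of the deposited table, so 10 of 54532 genes are described, and all 10 passed the filter on low counts that kept 14286 genes for testing. RNA was sequenced from 12 libraries in 4 groups of 3. All donors were 8-week-old mice with a floxed Hdac3 gene (Hdac3 encodes a histone deacetylase of nuclear corepressor complexes), and all cultures were grown from marrow with 10 ng/ml M-CSF, a cytokine under which marrow precursors become macrophages. The untreated Lyz2-Cre group came from Lyz2-Cre-Hdac3f/f mice, in which the myeloid gene Lyz2 drives the Cre recombinase that cuts the floxed gene, and spent 4 h in medium alone. The untreated Hdac3f/f group carries the floxed gene without Cre and was kept in the same way. The LPS-treated Lyz2-Cre group and the LPS-treated Hdac3f/f group were given 500 ng/ml lipopolysaccharide (LPS), a bacterial cell wall component, for 4 h. No group carries Cre without floxed Hdac3, so Cre itself and its action on Hdac3 cannot be told apart. The labels do not say whether libraries of a group are separate animals, so p-values measure the spread between these libraries, which may be technical.

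Mast cells and basophils are granulocytes of allergy and of defence against parasites. IgE bound to their high-affinity receptor FceRI is cross-linked by antigen, and the cells then release histamine and proteases stored in granules. Basophils mature in the bone marrow, whereas mast cells complete their development in tissues under stem cell factor, the ligand of KIT, and both lineages depend on the transcription factor GATA2. Macrophages do not make most of these granule proteins, but histidine decarboxylase is known to be induced in macrophages by bacterial products.

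Library totals lay between 16553432 and 18706990 counts. The libraries carried the macrophage markers Csf1r (1729 to 2444 CPM, counts divided by library size, here TMM-scaled) and Adgre1 (1450 to 3410 CPM). Hdac3, counted over the whole gene and so also outside any deleted part, was at 36.5, 33.1 and 35.1 CPM in untreated Lyz2-Cre libraries, against 36.2, 39.2 and 39.7 CPM in untreated Hdac3f/f libraries. With LPS it was at 37.9, 34.4 and 38.9 CPM in Lyz2-Cre libraries, against 40.7, 39.0 and 38.6 CPM in Hdac3f/f libraries, and this count is no measure of recombination. Library 1 of untreated Lyz2-Cre stands apart: its Lyz2 was at 31.0 CPM, against 5176 and 5632 CPM in the other untreated Lyz2-Cre libraries and 9310 to 12340 CPM in Hdac3f/f libraries, and the untreated genotype calls of the 10 genes and of the gene lists are given also without it. Values are counts made by the authors, levels are CPM, and a gene was called where the Benjamini-Hochberg adjusted p of edgeR's quasi-likelihood test was under 0.05 over all 14286 tested genes. Log2 fold changes are given ± SE and group levels as mean ± SD, with n = 3 libraries per group.

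Promoter windows of 5 members are printed because they hold the letters GATAA, which GATA factors bind. They are those with the letters among the 6 members that encode the IgE receptor chains, granule proteases and Cd200r3, so the set was picked for the motif. RefSeq (GRCm38.p6, the mm10 assembly) held start sites for all 10 members, and GATAA or its reverse complement TTATC was found in the 250 bases before a start of 6 of the 10. Of all 27025 genes with such windows, 25.5% held it in at least 1 window. Each line gives the strand of the gene from 5′ to 3′, and capitals mark GATAA or TTATC.
Fcer1a promoter (chr1:173227230-173227479, minus strand): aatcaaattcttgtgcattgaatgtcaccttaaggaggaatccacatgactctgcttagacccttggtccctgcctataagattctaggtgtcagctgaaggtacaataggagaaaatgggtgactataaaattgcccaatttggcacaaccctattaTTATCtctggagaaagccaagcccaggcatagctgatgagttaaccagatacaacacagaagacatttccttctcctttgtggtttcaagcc
Ms4a2 promoter (chr19:11623720-11623969, minus strand): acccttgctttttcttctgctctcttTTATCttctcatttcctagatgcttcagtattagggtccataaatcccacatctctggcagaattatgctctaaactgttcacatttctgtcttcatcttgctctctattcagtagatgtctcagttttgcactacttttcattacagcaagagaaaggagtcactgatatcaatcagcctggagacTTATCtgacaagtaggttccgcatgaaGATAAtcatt
Prss34 promoter (chr17:25298144-25298393, plus strand): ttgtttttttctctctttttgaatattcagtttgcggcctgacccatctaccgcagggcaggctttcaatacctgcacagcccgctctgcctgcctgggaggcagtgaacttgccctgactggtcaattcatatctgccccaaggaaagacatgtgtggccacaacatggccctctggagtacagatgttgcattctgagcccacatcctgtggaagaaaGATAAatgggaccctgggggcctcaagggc
Cpa3 promoter (chr3:20242182-20242431, minus strand): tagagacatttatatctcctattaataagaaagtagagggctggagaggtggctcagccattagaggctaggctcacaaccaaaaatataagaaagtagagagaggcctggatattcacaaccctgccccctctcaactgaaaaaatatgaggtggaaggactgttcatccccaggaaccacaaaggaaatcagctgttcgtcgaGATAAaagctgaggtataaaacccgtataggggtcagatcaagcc
Cd200r3 promoter (chr16:44943428-44943677, plus strand): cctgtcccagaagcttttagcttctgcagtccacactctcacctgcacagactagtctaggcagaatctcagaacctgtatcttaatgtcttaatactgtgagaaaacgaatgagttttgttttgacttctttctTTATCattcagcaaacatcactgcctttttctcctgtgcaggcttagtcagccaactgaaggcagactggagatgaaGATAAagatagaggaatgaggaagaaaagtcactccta
Ms4a2 held 3 such matches, with the base farthest from the start at 224, 37 and 10 bases before it. Cd200r3 held them at 115 and 38 bases, and the single matches of Fcer1a, Cpa3 and Prss34 lay at 92, 45 and 30 bases. Il1rl1 also held the letters, and the windows of Mcpt8, Hdc, Gata2 and Kit did not. A match of these letters is a description of the window, not a binding site, and no binding was measured.

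Whether Lyz2-Cre and Hdac3f/f macrophage cultures differ in these genes without LPS was the first question. Of the 10 genes, 7 were higher in untreated Lyz2-Cre cells and 0 were lower (all 10 estimates were above 0), where 5.13% of all tested genes were called higher and 6.66% lower. All 3 Lyz2-Cre libraries lay above all 3 Hdac3f/f libraries for 8 of the 10 and below them for 0, where 20.0% of all tested genes lay above and 16.5% below. The median log2 fold change was 0.97 over the 10 genes and 0.03 over all tested genes. With LPS, 6 of the 10 were higher in Lyz2-Cre cells and 1, Hdc, was lower, where 15.7% of all tested genes were called higher and 16.9% lower. All 3 Lyz2-Cre libraries then lay above all 3 Hdac3f/f libraries for 6 of the 10 and below them for 1, where 20.5% of all tested genes lay above and 22.7% below. In bulk RNA, fewer cells of a type and less RNA per cell cannot be told apart. The directions of these calls were the same with DESeq2 size factors and with library totals alone.

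**Figure D1:**
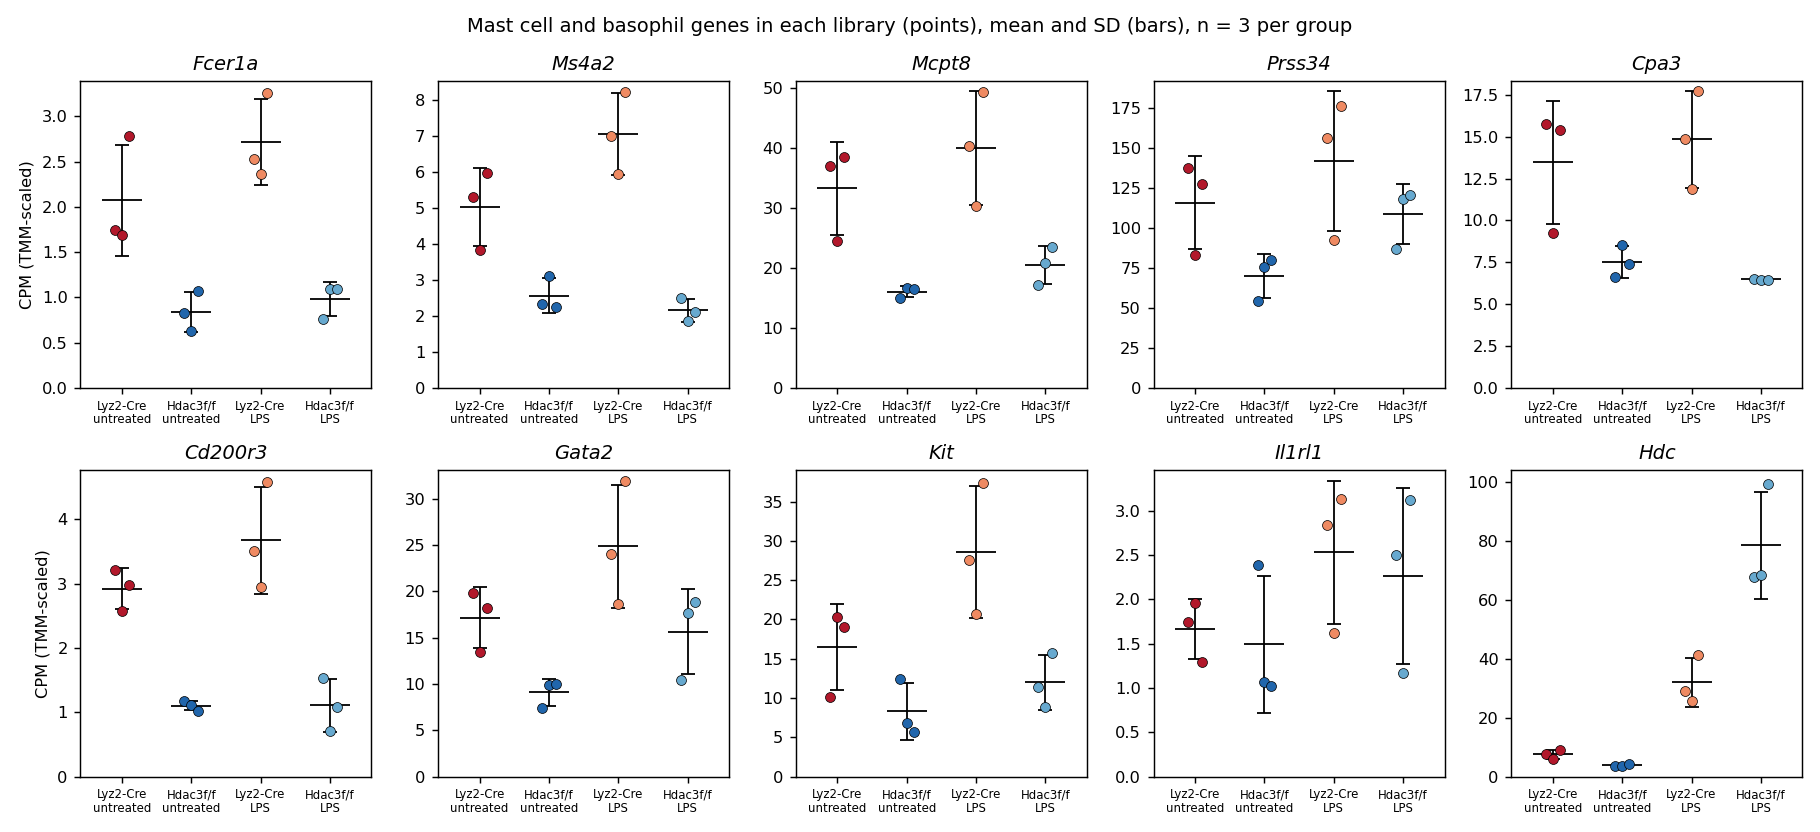
CPM (TMM-scaled, vertical axes from 0) of the 10 genes in each of 12 libraries, grouped by genotype and treatment; points are libraries, bars are mean and SD, n = 3 per group. All untreated Lyz2-Cre libraries lie above all untreated Hdac3f/f libraries for 8 genes, Kit and Il1rl1 being the exceptions, and Hdc alone is far higher with LPS than without in both genotypes.

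The chains of the IgE receptor were the members with the fewest counts beside Il1rl1 and Cd200r3. Fcer1a encodes the alpha chain, which binds IgE. Its level was 1.75, 1.69 and 2.78 CPM in untreated Lyz2-Cre libraries (36 to 56 counts), against 0.823, 0.632 and 1.07 CPM in untreated Hdac3f/f libraries (13 to 21 counts). With LPS the level of Fcer1a was 2.53, 2.37 and 3.26 CPM in Lyz2-Cre libraries (41 to 52 counts), against 0.764, 1.09 and 1.09 CPM in Hdac3f/f libraries (11 to 15 counts). Every Lyz2-Cre library was above every Hdac3f/f library, with and without LPS. The log2 fold change of Fcer1a was 1.29 ± 0.31 without LPS (2.45-fold, adjusted p = 0.0182) and 1.47 ± 0.31 with LPS (2.77-fold, adjusted p = 0.00468). Without library 3 of untreated Lyz2-Cre or library 2 of untreated Hdac3f/f the untreated difference was not called (adjusted p = 0.0840 and 0.0845).

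Ms4a2 encodes the beta chain, which amplifies the receptor's signal. In untreated cells its level was 5.29, 3.82 and 5.96 CPM in Lyz2-Cre libraries, against 2.34, 3.11 and 2.25 CPM in Hdac3f/f libraries. In LPS-treated cells its level was 6.995, 5.95 and 8.21 CPM in Lyz2-Cre libraries, against 2.50, 1.87 and 2.10 CPM in Hdac3f/f libraries. The groups did not overlap in either comparison, and the distance between them was wider with LPS. Its log2 fold change was 0.97 ± 0.22 without LPS (1.95-fold, adjusted p = 0.0172) and 1.70 ± 0.24 with LPS (3.25-fold, adjusted p = 0.000408). The test of whether these differ, the interaction, gave 0.74 ± 0.32 with an adjusted p of 0.197 and was not called. Without library 1 or 3 of untreated Lyz2-Cre or library 3 of untreated Hdac3f/f the untreated difference in Ms4a2 was not called (adjusted p = 0.0542, 0.0750 and 0.0735).

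Mcpt8, Prss34 and Cpa3 encode granule proteases of basophils and mast cells. Mcpt8 encodes a serine protease known in mice as a basophil marker. It was at 37.1, 24.4 and 38.5 CPM in untreated Lyz2-Cre libraries, against 15.0, 16.7 and 16.4 CPM in untreated Hdac3f/f libraries. With LPS Mcpt8 was at 40.3, 30.3 and 49.3 CPM in Lyz2-Cre libraries, against 17.2, 20.8 and 23.6 CPM in Hdac3f/f libraries. Library 2 was the lowest of each Lyz2-Cre group and still above every Hdac3f/f library at the same treatment. For Mcpt8 the log2 fold change was 1.05 ± 0.20 without LPS (2.07-fold, adjusted p = 0.00666) and 0.96 ± 0.20 with LPS (1.95-fold, adjusted p = 0.00407). Mcpt8 was called in both comparisons whichever of the 12 libraries was left out.

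Prss34 encodes a tryptase-like serine protease of mouse basophils and mast cells and had the most counts of the 10 genes (1252 to 2835 in a library). Its level was 138, 82.9 and 127 CPM in untreated Lyz2-Cre libraries, against 54.6, 75.6 and 80.0 CPM in untreated Hdac3f/f libraries. With LPS Prss34 was at 156, 92.5 and 176 CPM in Lyz2-Cre libraries, against 86.9, 118 and 121 CPM in Hdac3f/f libraries. The untreated groups did not overlap, but library 2 of Lyz2-Cre lay only just above the Hdac3f/f libraries, and with LPS library 2 of Lyz2-Cre lay among them. The log2 fold change of Prss34 was 0.73 ± 0.25 in untreated cells (adjusted p = 0.0761) and 0.38 ± 0.25 in LPS-treated cells (adjusted p = 0.249), and Prss34 was called in neither. Without library 2 of untreated Lyz2-Cre the untreated value was 0.92 and called (adjusted p = 0.0468), and it was also called without library 2 of LPS-treated Lyz2-Cre (adjusted p = 0.0464), while without library 1 of untreated Lyz2-Cre it was 0.58 (adjusted p = 0.210).

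Cpa3 encodes carboxypeptidase A3, stored in mast cell granules and also made by basophils. Its level was 15.8, 9.24 and 15.4 CPM in untreated Lyz2-Cre libraries, against 6.63, 8.56 and 7.41 CPM in untreated Hdac3f/f libraries. With LPS Cpa3 was at 14.9, 11.9 and 17.7 CPM in Lyz2-Cre libraries, against 6.53, 6.46 and 6.45 CPM in Hdac3f/f libraries. The LPS-treated Hdac3f/f libraries were nearly equal, and the genotypes did not overlap at either treatment. Between genotypes, the log2 fold change of Cpa3 was 0.84 ± 0.21 without LPS (1.79-fold, adjusted p = 0.0214) and 1.19 ± 0.21 with LPS (2.29-fold, adjusted p = 0.00167). Without library 1 or 3 of untreated Lyz2-Cre or library 3 of untreated Hdac3f/f the untreated difference in Cpa3 was not called (adjusted p = 0.0836, 0.0857 and 0.0739).

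Cd200r3 encodes an activating receptor of the CD200 receptor family that mouse basophils and mast cells carry. Its level was 3.20, 2.58 and 2.98 CPM in untreated Lyz2-Cre libraries (58 to 66 counts), against 1.17, 1.12 and 1.02 CPM in untreated Hdac3f/f libraries (20 to 27 counts). With LPS Cd200r3 was at 3.50, 2.94 and 4.57 CPM in Lyz2-Cre libraries (51 to 73 counts), against 1.53, 0.701 and 1.09 CPM in Hdac3f/f libraries (9 to 22 counts). Every Lyz2-Cre library was above every Hdac3f/f library, and the fold change was the largest of the 10 genes, with Ms4a2 nearly as large with LPS. For Cd200r3 the log2 fold change was 1.40 ± 0.28 without LPS (2.63-fold, adjusted p = 0.00799) and 1.71 ± 0.29 with LPS (3.28-fold, adjusted p = 0.00116). Cd200r3 was called in both comparisons whichever library was left out. Of its 50-base stretches of transcript, 2.79% also occur in other genes, against 2.10% of those of Ms4a2, 0.141% of those of Hdc, 0.0438% of those of Il1rl1 and none of the other members'.

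Gata2 encodes the zinc finger transcription factor that both lineages need, and it also acts in blood progenitors. Its level was 19.8, 13.5 and 18.2 CPM in untreated Lyz2-Cre libraries, against 7.41, 9.87 and 10.0 CPM in untreated Hdac3f/f libraries. With LPS Gata2 was at 24.0, 18.6 and 31.9 CPM in Lyz2-Cre libraries, against 10.4, 17.7 and 18.9 CPM in Hdac3f/f libraries. The groups were apart without LPS, whereas with LPS the lowest Lyz2-Cre library and the highest Hdac3f/f library overlapped. Between genotypes, the log2 fold change of Gata2 was 0.92 ± 0.25 without LPS (1.89-fold, adjusted p = 0.0322) and 0.67 ± 0.24 with LPS (adjusted p = 0.0528), the second of which was not called. The untreated call was lost without any 1 of 6 libraries: library 1 or 3 of untreated Lyz2-Cre, library 1, 2 or 3 of untreated Hdac3f/f, or library 1 of LPS-treated Lyz2-Cre (adjusted p between 0.05003 and 0.104). With LPS, Gata2 was called without library 1 of untreated Hdac3f/f (adjusted p = 0.0465) or library 2 of LPS-treated Lyz2-Cre (adjusted p = 0.0371).

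Kit encodes the receptor for stem cell factor, which mast cells keep throughout life and which progenitors also carry. In untreated cells its level was 10.2, 20.3 and 19.0 CPM in Lyz2-Cre libraries, against 12.4, 6.81 and 5.67 CPM in Hdac3f/f libraries. In LPS-treated cells Kit was at 27.5, 20.7 and 37.4 CPM in Lyz2-Cre libraries, against 11.4, 8.88 and 15.7 CPM in Hdac3f/f libraries. Library 1 of untreated Lyz2-Cre fell below library 1 of untreated Hdac3f/f, so the untreated groups overlapped, and the LPS-treated groups did not. For Kit the log2 fold change was 0.98 ± 0.34 without LPS (adjusted p = 0.0778, not called) and 1.25 ± 0.34 with LPS (2.37-fold, adjusted p = 0.0148). Without library 1 of untreated Lyz2-Cre the untreated value was 1.23 (adjusted p = 0.0437), and without library 1 of untreated Hdac3f/f it was 1.40 (adjusted p = 0.0168). The call with LPS was lost without library 3 of LPS-treated Lyz2-Cre or library 2 of LPS-treated Hdac3f/f (adjusted p = 0.0535 and 0.0678).

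Il1rl1 encodes ST2, the receptor for interleukin 33 on mast cells, basophils and some lymphocytes. Its level was 1.75, 1.96 and 1.29 CPM in untreated Lyz2-Cre libraries (26 to 44 counts), against 2.38, 1.07 and 1.02 CPM in untreated Hdac3f/f libraries (20 to 55 counts). With LPS Il1rl1 was at 2.83, 1.62 and 3.13 CPM in Lyz2-Cre libraries (28 to 50 counts), against 2.50, 1.17 and 3.12 CPM in Hdac3f/f libraries (15 to 43 counts). The genotypes overlapped at both treatments. The log2 fold change of Il1rl1 was 0.15 ± 0.42 in untreated cells (adjusted p = 0.838) and 0.15 ± 0.41 in LPS-treated cells (adjusted p = 0.806), and its SE was the widest of the 10 genes, so a difference close to that of the other members could be missed.

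Hdc encodes histidine decarboxylase, the enzyme that makes histamine, and its pattern over the 4 groups was its own. Without LPS its level was 7.77, 6.09 and 9.14 CPM in Lyz2-Cre libraries, against 3.68, 3.50 and 4.14 CPM in Hdac3f/f libraries. With LPS its level was 28.9, 25.5 and 41.4 CPM in Lyz2-Cre libraries, against 67.8, 68.4 and 99.4 CPM in Hdac3f/f libraries. The Lyz2-Cre libraries were thus all higher than the Hdac3f/f libraries without LPS and all lower with LPS. Between genotypes, the log2 fold change of Hdc was 1.02 ± 0.23 without LPS (2.03-fold, adjusted p = 0.0150) and -1.30 ± 0.20 with LPS (0.407-fold, adjusted p = 0.000759). Without library 3 of untreated Lyz2-Cre or library 2 of untreated Hdac3f/f the untreated call was lost (adjusted p = 0.0616 and 0.0594), and the call with LPS held whichever library was left out.

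**Figure D2:**
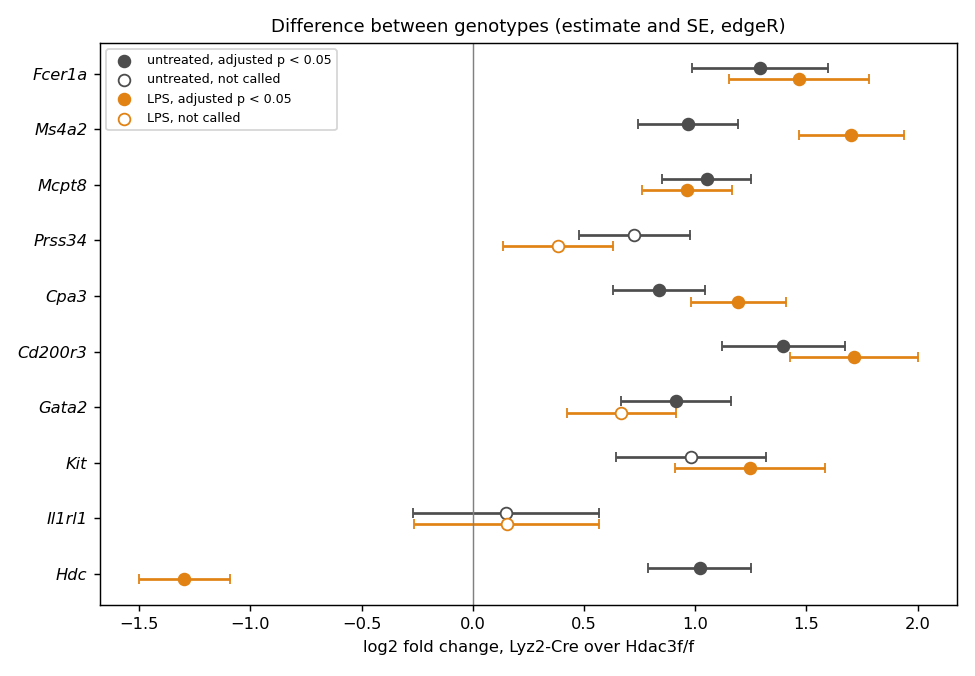
Log2 fold change of Lyz2-Cre over Hdac3f/f cells (horizontal axis) for each of the 10 genes, with LPS (orange) and without (grey); points are edgeR estimates, bars are SE, filled where the adjusted p was under 0.05. Values lie right of 0 for all genes except Hdc with LPS, at -1.30.

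Without library 1 of untreated Lyz2-Cre, the one with Lyz2 at 31.0 CPM, 5 of the 10 genes were called higher in untreated Lyz2-Cre cells, against 7 with it, while the share of all tested genes called higher was 2.86%, against 5.13% with it. Those were Cd200r3 (1.32 ± 0.31), Fcer1a (1.40 ± 0.34), Kit (1.23 ± 0.32), Hdc (1.01 ± 0.26) and Mcpt8 (0.97 ± 0.22). Ms4a2 (0.92 ± 0.26), Gata2 (0.80 ± 0.27) and Cpa3 (0.71 ± 0.22) then missed the threshold. The count was 2 (Cd200r3 and Mcpt8) without library 3 of untreated Lyz2-Cre, where 2.50% of all tested genes were called higher, and 8 without library 2 of untreated Lyz2-Cre, where 2.75% were. It was 4 without library 2 of untreated Hdac3f/f (1.82% of all tested genes) and 4 without library 3 of untreated Hdac3f/f (1.94%).

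Levels can be compared between genes only per length, as CPM per kilobase of deposited gene length. On that scale Prss34 was the highest of the 10 in every group, at 95.4 ± 23.9 in untreated Lyz2-Cre and 57.6 ± 11.2 in untreated Hdac3f/f cells, and at 117 ± 36.0 in LPS-treated Lyz2-Cre and 89.4 ± 15.5 in LPS-treated Hdac3f/f cells (SD, n = 3 each). Mcpt8 was next in every group, at 33.4 ± 7.76 in untreated Lyz2-Cre and 16.1 ± 0.908 in untreated Hdac3f/f cells per kilobase. Cpa3 was the third in untreated cells, at 8.88 ± 2.42 in Lyz2-Cre and 4.97 ± 0.639 in Hdac3f/f cells. Gata2 followed at 3.18 ± 0.608 in untreated Lyz2-Cre cells and 1.69 ± 0.271 in untreated Hdac3f/f cells. Fcer1a, Kit and Ms4a2 came next in untreated Lyz2-Cre cells at 2.08 ± 0.617, 1.85 ± 0.620 and 1.79 ± 0.389 per kilobase, within each other's SD. Kit, Ms4a2 and Fcer1a held those ranks in untreated Hdac3f/f cells at 0.932 ± 0.407, 0.912 ± 0.169 and 0.845 ± 0.222 per kilobase, again within their SD. Il1rl1 and Cd200r3 were the lowest of the 10 in every group, between 0.184 and 0.614 per kilobase. Hdc was the eighth of the 10 in untreated cells of both genotypes, the fourth in LPS-treated Lyz2-Cre cells (5.002 ± 1.31, beside Gata2 at 4.60 ± 1.23) and the third in LPS-treated Hdac3f/f cells (12.3 ± 2.83). All 40 ranks (10 genes in 4 groups) were the same in the FPKM values deposited by the authors.

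How the 10 genes respond to LPS was asked within each genotype. In Lyz2-Cre cells Hdc was the only member called, higher with LPS, where 52.9% of all tested genes were called, 25.2% higher and 27.7% lower. In Hdac3f/f cells 3 of the 10 were called higher (Hdc, Gata2 and Prss34) and 0 lower, where 60.1% of all tested genes were called, 28.0% higher and 32.1% lower. All 3 LPS-treated libraries lay above all 3 untreated ones for 2 members in Lyz2-Cre cells (Hdc and Kit) and below them for 0, where 30.9% of all tested genes lay above and 34.9% below. In Hdac3f/f cells they lay above for 4 members (Hdc, Gata2, Prss34 and Mcpt8) and below for 1 (Cpa3), where 28.3% of all tested genes lay above and 33.1% below. The genes of the IgE receptor, Mcpt8, Cpa3 and Cd200r3 were called in neither genotype. These comparisons depend on the scaling, because with library totals alone the median log2 fold change of all tested genes was -0.46 in Lyz2-Cre cells (-0.08 with TMM) and -0.72 in Hdac3f/f cells (-0.08 with TMM). With library totals alone the calls among all tested genes were 2114 higher and 6462 lower in Lyz2-Cre cells, against 3606 higher and 3958 lower with TMM. In Hdac3f/f cells they were 2086 higher and 8239 lower with library totals alone, against 3993 higher and 4591 lower with TMM. Among the 10, library totals alone left Hdc called higher in both genotypes and, in Hdac3f/f cells, Ms4a2 (-0.88, adjusted p = 0.00699) and Cpa3 (-0.85, adjusted p = 0.00283) called lower, while Prss34 (-0.0044) and Gata2 (0.14) were no longer called. With TMM, Ms4a2 in Hdac3f/f cells was at -0.25 ± 0.24 (adjusted p = 0.402) and Cpa3 at -0.22 ± 0.22 (adjusted p = 0.410).

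Hdc was at 28.9, 25.5 and 41.4 CPM in LPS-treated Lyz2-Cre libraries, against 7.77, 6.09 and 9.14 CPM in untreated ones. That is a log2 fold change of 2.06 ± 0.22 (4.17-fold, adjusted p = 4.09e-06), and every LPS-treated library was above every untreated one. In Hdac3f/f cells the same comparison gave 4.38 ± 0.24 (20.8-fold, adjusted p = 5.73e-09). The LPS response in Lyz2-Cre minus that in Hdac3f/f cells, the interaction, was -2.32 ± 0.31 on the log2 scale (adjusted p = 0.00125). Hdc was the only member with a called interaction, where 8.12% of all tested genes had one, 2.58% a higher and 5.54% a lower response in Lyz2-Cre cells, and it was called whichever library was left out and under all alternatives run. With library totals alone those interaction calls were 1135 higher and 449 lower, against 369 higher and 791 lower with TMM, and Hdc was still lower. Interaction values of the other 9 members lay between -0.34 (Prss34) and 0.74 (Ms4a2), with SE from 0.28 (Mcpt8) to 0.64 (Il1rl1), so smaller differences in response could be missed.

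Gata2 was at 10.4, 17.7 and 18.9 CPM in LPS-treated Hdac3f/f libraries, against 7.41, 9.87 and 10.0 CPM in untreated ones, a log2 fold change of 0.78 ± 0.25 (1.72-fold, adjusted p = 0.0160). Its lowest LPS-treated library lay only just above the highest untreated one. The call was lost without library 1 of untreated Hdac3f/f or library 2 or 3 of LPS-treated Hdac3f/f (adjusted p = 0.0588, 0.0569 and 0.0773). In Lyz2-Cre cells Gata2 was at 0.53 ± 0.24 (adjusted p = 0.0789), called without library 2 of LPS-treated Lyz2-Cre or library 1 of LPS-treated Hdac3f/f (adjusted p = 0.0356 and 0.0307).

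Prss34 was at 86.9, 118 and 121 CPM in LPS-treated Hdac3f/f libraries, against 54.6, 75.6 and 80.0 CPM in untreated ones, a log2 fold change of 0.63 ± 0.25 (1.55-fold, adjusted p = 0.0417). The groups did not overlap, but the call was lost in 6 of the 12 fits that each left out 1 library: library 1 or 2 of untreated Hdac3f/f, library 2 or 3 of LPS-treated Hdac3f/f, library 3 of untreated Lyz2-Cre and library 1 of LPS-treated Lyz2-Cre (adjusted p between 0.0502 and 0.137). In Lyz2-Cre cells Prss34 was at 0.29 ± 0.25 (adjusted p = 0.344). Kit in Lyz2-Cre cells was above its untreated level in all LPS-treated libraries, at 0.79 ± 0.33 (adjusted p = 0.0581), and passed the threshold without library 1 or 3 of untreated Hdac3f/f or library 2 of LPS-treated Lyz2-Cre (adjusted p = 0.0280, 0.0479 and 0.0371). In Hdac3f/f cells Kit was at 0.53 ± 0.34 (adjusted p = 0.207) and Il1rl1 at 0.59 ± 0.42 (adjusted p = 0.245). Both were called there without library 1 of untreated Hdac3f/f, their highest untreated Hdac3f/f library, at 0.94 (adjusted p = 0.0305) for Kit and 1.11 (adjusted p = 0.0403) for Il1rl1.

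**Figure D3:**
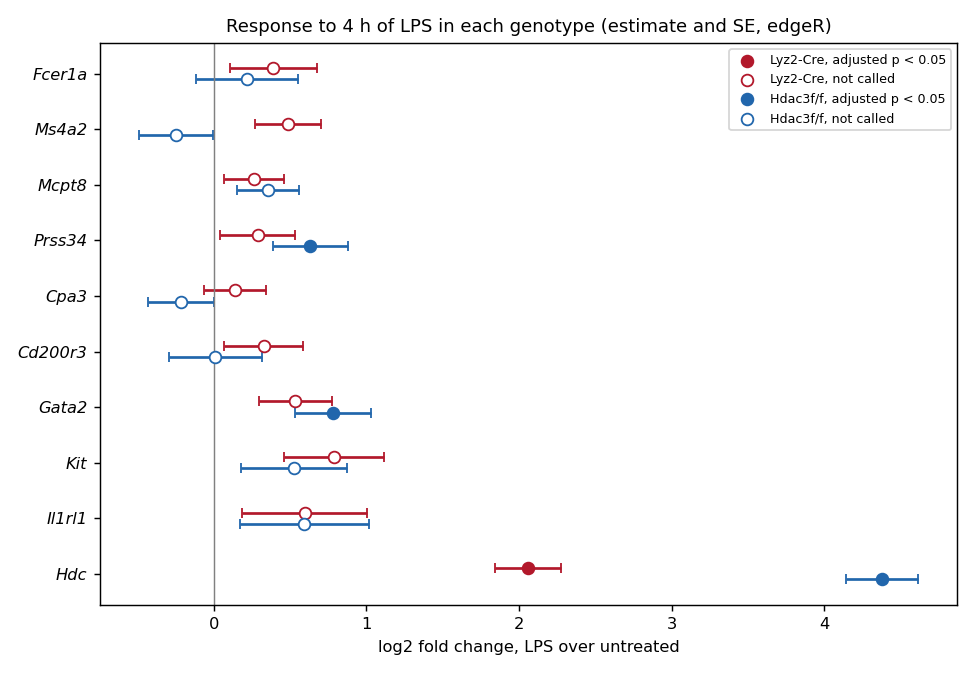
Log2 fold change of LPS-treated over untreated cells (horizontal axis) for each of the 10 genes, in Lyz2-Cre (red) and Hdac3f/f cells (blue); points are edgeR estimates, bars are SE, filled where the adjusted p was under 0.05. Hdc lies at 2.06 in Lyz2-Cre and 4.38 in Hdac3f/f cells, and all other values lie below 0.80.

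The table deposited by the authors holds log2 ratios and adjusted p-values for both genotype comparisons, with Hdac3f/f over Lyz2-Cre, so that a negative ratio means higher in Lyz2-Cre cells. Among the values of the authors' deposited table without LPS, 9 of the 10 genes had an adjusted p under 0.05, all but Il1rl1 (0.908), where 9.94% of the 23501 genes with an adjusted p there did. With LPS 8 of the 10 did in the authors' deposited table, all but Prss34 (0.239) and Il1rl1 (0.855), where 18.1% of 21876 genes did. The authors' deposited table thus has Prss34 (-0.69, adjusted p = 0.00682) and Kit (-0.96, adjusted p = 0.0215) past the threshold without LPS, and Gata2 (-0.66, adjusted p = 0.0490) with LPS. These are the same libraries, so they are no independent support. DESeq2's Wald test on the counts, listed as an alternative, also called 9 of the 10 genes without LPS, where it called 16.2% of all tested genes.

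Other genes of mast cells and basophils were counted from lists that do not hold the 10. Granule proteases that mast cells are known for had 0 or a few counts: Mcpt2, Mcpt4 and Tpsb2 had 0 counts in all 12 libraries, and Cma1, Mcpt1, Mcpt9, Tpsab1 and Tpsg1 had 2, 3, 2, 6 and 2 counts over all 12. Mrgprb2, a receptor of mouse connective tissue mast cells, also had 0 counts, where 3 counts in a library correspond to 0.160 to 0.181 CPM of the unscaled total. The proteases at or near 0 counts were thus different from Mcpt8, Prss34 and Cpa3, which every library held. Gzmb, encoding granzyme B, and Ctsg, encoding cathepsin G, which other leukocytes also make, were the 2 of 10 proteases with enough counts for the test, and Gzmb was higher in untreated Lyz2-Cre cells (1.15 ± 0.31, adjusted p = 0.0338), a call lost without library 1 of untreated Lyz2-Cre (adjusted p = 0.0924).

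Of 26 further genes of basophils and mast cells 23 were tested, and 7 were higher and 2 lower in untreated Lyz2-Cre cells (median log2 fold change 0.36, against 0.03 over all tested genes). Of all tested genes 5.13% were higher and 6.66% lower there. Ikzf2, encoding the transcription factor Helios, was higher (1.48 ± 0.24, adjusted p = 0.00293), as were Itgb7, an integrin chain (1.22 ± 0.20, adjusted p = 0.00293), and Csf2rb, the common beta chain of the receptors for interleukin 3, interleukin 5 and GM-CSF (0.73 ± 0.12, adjusted p = 0.00358). Ccr3, the eotaxin receptor, was lower (-1.94 ± 0.27, adjusted p = 0.00114). Macrophages carry Csf2rb too, and it averaged 440.1 CPM in untreated Lyz2-Cre cells and 265 CPM in untreated Hdac3f/f cells. In untreated cells 5 were higher and 1 lower without library 1 of untreated Lyz2-Cre, with a median of 0.16. With LPS 5 of the 23 were higher and 4 lower in Lyz2-Cre cells, where 15.7% of all tested genes were higher and 16.9% lower. The higher ones were Ikzf2 (2.18 ± 0.25, adjusted p = 0.000142) and Slc18a2, the vesicular transporter that loads histamine into granules (1.68 ± 0.37, adjusted p = 0.00535). Gpr34 (1.40 ± 0.43), Alox5 (0.81 ± 0.18) and Cd200r1 (0.29 ± 0.09) were higher too. The lower ones were Cd63, a granule membrane protein (-0.79 ± 0.17), Srgn, the granule proteoglycan serglycin (-0.65 ± 0.14), Il3ra, a chain of the interleukin 3 receptor (-0.59 ± 0.19), and Alox5ap, a partner of the 5-lipoxygenase (-0.50 ± 0.17). These lower genes averaged 961, 453, 185 and 87.8 CPM, in that order, in LPS-treated Hdac3f/f cells. In LPS-treated Lyz2-Cre cells they averaged 555.5, 289, 123 and 62.1 CPM, and which cells carried this RNA was not tested. Here and in the next paragraphs, genes named for their values with LPS were chosen after those values were seen.

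Signalling genes downstream of these receptors were seldom called without LPS, where 5.13% of all tested genes were called higher and 6.66% lower. Of 22 genes of FceRI and KIT signalling, all tested, 0 were higher (5 at an unadjusted p under 0.05) and 1 was lower in untreated Lyz2-Cre cells, namely Fyn, a Src family kinase (-0.64 ± 0.14, adjusted p = 0.0127). The median log2 fold change of the 22 was 0.13, against 0.97 over the 10 members. Here and below, counts at an unadjusted p stand without the share of all tested genes, which was not computed. With LPS, where 15.7% of all tested genes were called higher and 16.9% lower, 1 of the 22 was higher (Lat, an adaptor, 0.78 ± 0.26, adjusted p = 0.0381) and 9 were lower, such as Lat2, a related adaptor (-1.34 ± 0.22, adjusted p = 0.00104). Macrophages use many of these kinases and adaptors themselves. Of 8 genes around ST2, 7 were tested and 0 were called in untreated cells by edgeR, 0 also at an unadjusted p under 0.05. With LPS Rnf128, an E3 ubiquitin ligase, was higher (1.06 ± 0.14, adjusted p = 0.000369) and Myd88, the adaptor of ST2 and of Toll-like receptors, was lower (-0.84 ± 0.14, adjusted p = 0.000928). Of 19 transcription factors known from mast cell and basophil development, all tested, 0 were higher (1, Gata1, at an unadjusted p under 0.05) and 2 were lower in untreated Lyz2-Cre cells: Cebpa, which drives myeloid fates (-1.14 ± 0.22, adjusted p = 0.00748), and Lmo2, a partner of GATA factors (-0.57 ± 0.13, adjusted p = 0.0180), whose call was lost without library 1 of untreated Lyz2-Cre (adjusted p = 0.0656). Gata1, the factor most closely related to Gata2 among them, was at 1.28 ± 0.51 (adjusted p = 0.125, not called). With LPS 2 of the 19 were higher and 6 lower in Lyz2-Cre cells, where 15.7% of all tested genes were higher and 16.9% lower. Fyn and Cebpa were the untreated calls left in these 3 lists without library 1 of untreated Lyz2-Cre.

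Markers of other cell types were counted beside these results, and their part in the results was not tested. Of all tested genes 5.13% were called higher and 6.66% lower in untreated Lyz2-Cre cells. Of 10 lymphocyte and innate lymphoid genes tested (of 12), 3 were higher and 1 lower in untreated Lyz2-Cre cells, with a median log2 fold change of 1.05: Klrb1c (1.60 ± 0.48), Ncr1 (1.35 ± 0.36) and Cd3g (1.31 ± 0.31) were higher and Cd4, which myeloid cells can also express, was lower (-0.90 ± 0.22). Cd4 made up most of the summed level of this list, so the sum is given without it, a choice made after its values were seen. Over the other 11 genes it was 60.1 to 117 CPM in untreated Lyz2-Cre libraries, against 60.6 to 80.4 CPM in untreated Hdac3f/f libraries, and the groups overlapped. With LPS it was 45.4 to 62.7 CPM in Lyz2-Cre libraries, against 29.3 to 42.7 CPM in Hdac3f/f libraries, and all Lyz2-Cre libraries were higher. Il7r was the largest part of this sum, averaging 65.6 CPM in untreated Lyz2-Cre and 56.1 CPM in untreated Hdac3f/f cells, and with LPS 23.9 and 23.0 CPM. Genes such as Cd3g (3.26 CPM in untreated Lyz2-Cre and 1.31 CPM in untreated Hdac3f/f cells) hardly enter it. With Cd4 the sum was 216 to 221 CPM in untreated Lyz2-Cre libraries, against 253.5 to 408 CPM in untreated Hdac3f/f libraries, and 96.5 to 114 CPM in LPS-treated Lyz2-Cre libraries, against 118 to 154.5 CPM in LPS-treated Hdac3f/f libraries. Without library 1 of untreated Lyz2-Cre 2 lymphocyte genes (Klrb1c and Ncr1) were called higher and 0 lower in untreated cells, with a median of 0.88. Of 9 megakaryocyte and platelet genes tested (of 10), 1 was higher and 0 lower in untreated Lyz2-Cre cells, namely Pf4 (1.06 ± 0.28, adjusted p = 0.0301), with a median of 0.89. Without library 1 of untreated Lyz2-Cre 0 of the 9 were called, Pf4 was at 0.71 ± 0.25 (adjusted p = 0.118) and the median was -0.016, so the higher median of this list in untreated cells rested on that library. With LPS, between groups that do not hold that library, the list median was 1.03, against 0.02 over all tested genes and 1.08 over the 10 members. The megakaryocyte and platelet sum was 456 to 1146 CPM in untreated Lyz2-Cre libraries (456 to 569.6 CPM without library 1), against 307 to 452.5 CPM in untreated Hdac3f/f libraries, and 702 to 907 CPM in LPS-treated Lyz2-Cre libraries, against 423 to 621 CPM in LPS-treated Hdac3f/f libraries. Pf4 was the largest part of it, averaging 496 CPM in untreated Lyz2-Cre and 237 CPM in untreated Hdac3f/f cells, and with LPS 520 and 406 CPM. With LPS 5 of the 10 lymphocyte genes were higher and 1 lower, and 0 of the 9 megakaryocyte genes were called (4 higher at an unadjusted p under 0.05). Of all tested genes 15.7% were called higher and 16.9% lower with LPS. With all libraries the medians of both lists lay close to that of the 10 genes in untreated cells, though few of their genes passed the test.

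Some eosinophil and neutrophil genes were lower in untreated Lyz2-Cre cells, where 5.13% of all tested genes were called higher and 6.66% lower. Of 6 eosinophil genes tested (of 10), 0 were higher and 3 lower in untreated Lyz2-Cre cells, namely Ear2 (-2.06 ± 0.47), Ccr3 and Siglecf (-1.22 ± 0.29), with Ear10 at 0 counts in all libraries. Their sum was 10.0 to 12.4 CPM in untreated Lyz2-Cre libraries, against 24.2 to 30.1 CPM in untreated Hdac3f/f libraries, and 10.6 to 24.7 CPM in LPS-treated Lyz2-Cre libraries, against 28.0 to 39.9 CPM in LPS-treated Hdac3f/f libraries. Of 10 neutrophil genes tested (of 12), 0 were higher and 2 lower in untreated Lyz2-Cre cells, S100a8 (-1.79 ± 0.50) and Camp (-1.16 ± 0.35), while Cxcr2 was at 1.24 ± 0.55 (adjusted p = 0.157, not called). Without library 1 of untreated Lyz2-Cre 1 eosinophil gene (Ccr3) and 0 neutrophil genes were called lower, with medians of -1.28 and -1.08. Ccr3 also stands in the list of further basophil and mast cell genes, so its lower calls there and here are those of the same gene. With LPS 0 of the 6 eosinophil genes were higher and 4 lower (Prg3, Siglecf, Ear2 and Prg2), with a median of -1.22. Of all tested genes 15.7% were then higher and 16.9% lower. The neutrophil sum was 70.3 to 182.5 CPM in untreated Lyz2-Cre libraries (171 to 182.5 CPM without library 1), against 252 to 438.5 CPM in untreated Hdac3f/f libraries, and with LPS 0 were called, 0 also at an unadjusted p under 0.05, and the ranges overlapped (110.3 to 402 CPM in Lyz2-Cre, against 148 to 335 CPM in Hdac3f/f libraries). Of 10 progenitor genes, all tested, 0 were higher and 1 lower in untreated Lyz2-Cre cells, Cdk6 (-0.59 ± 0.13), with a list median of 0.0017. Their sum was 62.4 to 71.9 CPM in untreated Lyz2-Cre libraries, against 79.8 to 109 CPM in untreated Hdac3f/f libraries. Cdk6 was the largest part of it, averaging 38.1 CPM in untreated Lyz2-Cre and 57.3 CPM in untreated Hdac3f/f cells. With LPS Cdk6 averaged 37.0 CPM in Lyz2-Cre and 65.6 CPM in Hdac3f/f cells. The lower untreated sum thus does not show that the other progenitor genes were lower. Cdk6 was again the only progenitor gene called without library 1 of untreated Lyz2-Cre, with a list median of -0.26, and 0 erythroid genes were then called. With LPS the progenitor sum was 83.2 to 90.5 CPM in Lyz2-Cre libraries, against 88.2 to 127 CPM in Hdac3f/f libraries. Only 2 of 10 erythroid genes were tested and 0 were called in untreated cells (0 also at an unadjusted p under 0.05), and Car1 and Slc4a1 had 0 counts. The erythroid sum was 4.32 to 11.3 CPM in untreated Lyz2-Cre libraries (4.32 to 5.51 CPM without library 1), against 6.72 to 8.07 CPM in untreated Hdac3f/f libraries. With LPS it was 4.97 to 10.8 CPM in Lyz2-Cre libraries, against 2.57 to 4.42 CPM in Hdac3f/f libraries, and all Lyz2-Cre libraries were higher. Hba-a1 was called higher with LPS (1.65 ± 0.58, adjusted p = 0.0444) and Epor was not (0.96 ± 0.42, adjusted p = 0.0982). Of 12 macrophage genes, all tested, 1 was higher (Mertk, 0.58 ± 0.15) and 2 lower (Itgam, -1.22 ± 0.12, and Cd163, -2.47 ± 0.46) in untreated Lyz2-Cre cells, and without library 1 of that group 1 was higher and 3, now with Lyz2, were lower. The macrophage sum, which includes Lyz2 itself, was 7832 to 13140 CPM in untreated Lyz2-Cre libraries (12580 to 13140 CPM without library 1), against 16250 to 19240 CPM in untreated Hdac3f/f libraries, and 18860 to 20250 CPM in LPS-treated Lyz2-Cre libraries, against 22120 to 24150 CPM in LPS-treated Hdac3f/f libraries. Lyz2 alone averaged 3613 CPM in untreated Lyz2-Cre and 10480 CPM in untreated Hdac3f/f cells, and with LPS 6683 and 11360 CPM. The lower sums thus followed Lyz2, the gene that drives Cre, and do not show that the other macrophage genes were lower. Among those, Csf1r and Adgre1 averaged higher and Cd68 and Itgam lower in Lyz2-Cre cells at both treatments.

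**Figure D4:**
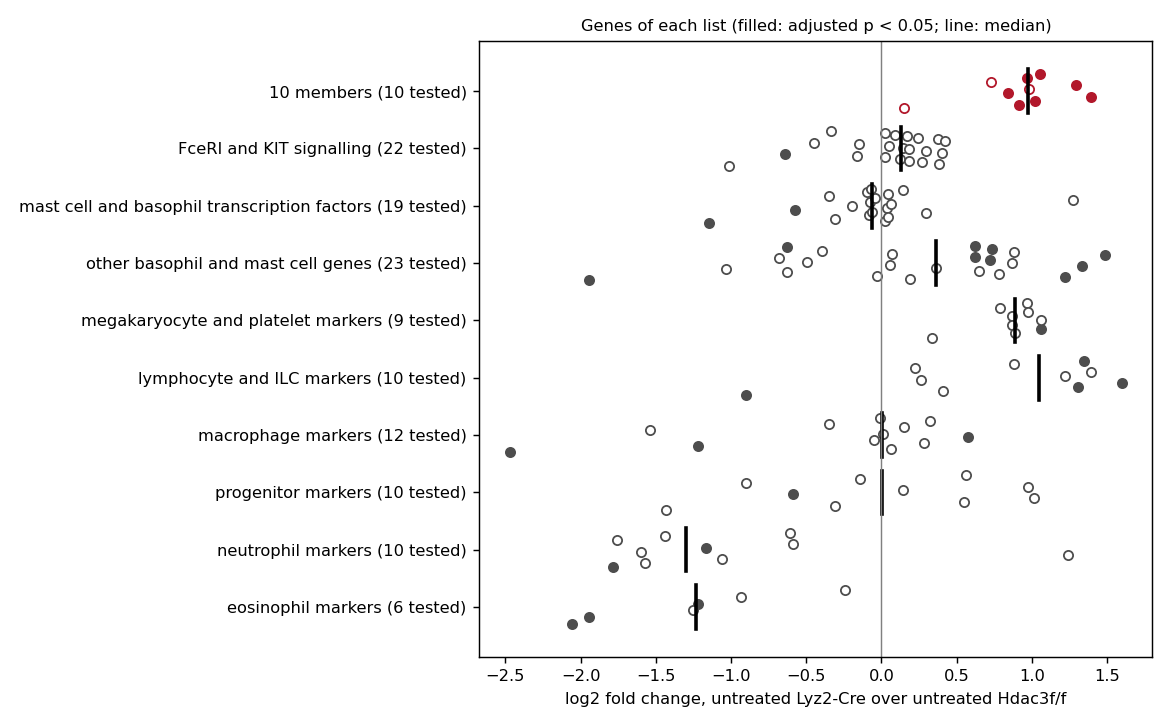
Log2 fold change of untreated Lyz2-Cre over untreated Hdac3f/f cells (horizontal axis) for the 10 genes (red) and for the tested genes of 9 lists (grey); each point is a gene, filled where the edgeR adjusted p was under 0.05, and the line marks the median. The median of the 10 genes lies at 0.97, those of the lymphocyte and the megakaryocyte genes at 1.05 and 0.89, and those of the eosinophil and neutrophil genes below -1.2; without library 1 of untreated Lyz2-Cre the megakaryocyte median was -0.016.

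The 6 members Fcer1a, Ms4a2, Mcpt8, Prss34, Cpa3 and Cd200r3 encode the IgE receptor chains, the granule proteases and Cd200r3, a grouping made with earlier results of these data known, and were summed and averaged as a shared profile. Their summed level was 201, 125 and 193 CPM in untreated Lyz2-Cre libraries, against 80.6, 106 and 108 CPM in untreated Hdac3f/f libraries. With LPS it was 224, 146 and 259.5 CPM in Lyz2-Cre libraries, against 115, 149 and 155 CPM in Hdac3f/f libraries. Prss34 makes up most of this sum, and library 2 was the lowest of both Lyz2-Cre groups. To find genes of like pattern, log2 CPM was centred on each gene's mean over the 12 libraries and compared with the average of the 6 by the root mean square difference, a description with no test. The 6 genes that make up the average lay between 0.13 (Mcpt8) and 0.38 (Prss34) from it on this log2 scale, which their use in the average makes small. Of the members not used in it, Gata2 lay at 0.34, Kit at 0.49, Il1rl1 at 0.67 and Hdc at 1.73, where the median of all tested genes was 0.78. The 8 nearest other genes were Alox5 (0.24), encoding the lipoxygenase that starts leukotriene synthesis, Trdc (0.24), Cd3g (0.24), Sirpb1a (0.27), Sirpb1c (0.27), Sept1 (0.29), Cdh1 (0.29) and Klrb1b (0.29). Trdc and Cd3g belong to T cell receptor complexes, Klrb1b is a receptor of natural killer cells, and Cdh1 encodes E-cadherin. Trdc averaged only 0.524 CPM in untreated Lyz2-Cre and 0.143 CPM in untreated Hdac3f/f cells, and with LPS 0.623 and 0.173 CPM. At such low counts the prior count of 2 weighs on log2 CPM, so its place among the 8 is uncertain. Sirpb1a and Sirpb1c are near-identical relatives among which reads may be split. Cdh1 averaged 5.64 CPM in untreated Lyz2-Cre and 1.80 CPM in untreated Hdac3f/f cells, and with LPS 7.71 CPM in Lyz2-Cre and 2.70 CPM in Hdac3f/f cells.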

How the data were processed

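The 12 libraries, 3 per group, were made from total RNA. The authors deposited raw counts per gene, FPKM per gene, log2 fold changes and p-values for both genotype comparisons. Per the submitters' processing notes, TopHat2 and mm10 were used; the counting tool, annotation release and strand setting are not given in the sources used here. The test behind the deposited p-values is not named by the authors.

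Genes were filtered with filterByExpr by group, scaled by TMM and fitted with 1 quasi-likelihood model over the 4 groups (edgeR 4.0.16, R 4.3.3), and p-values were Benjamini-Hochberg adjusted over 14286 genes. CPM and per-kilobase levels were computed from the counts. Deposited FPKM served only for the order of levels. Log2 CPM used a prior count of 2. The fit was tested on simulated data. Alternatives used DESeq2 1.42.0, limma 3.58.1, other scalings and filters, and fits without each library. List counts without library 1 of untreated Lyz2-Cre and the lymphocyte sum without Cd4 were added after seeing the data. Mcpt8 and Cpa3 overlap a microRNA gene with 1 and 13 counts over all libraries. The coordinates of 9 of the 10 members, all but Prss34, were the same in GENCODE M21.

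Samples were grouped by the labelled genotype and the protocol's treatment. No same-group libraries were duplicates: chi-square per gene was 7.97 to 46.2 between them. Limits from 3 counts cover counting error only. All 10 members and, from each list, the up to 4 tested genes of lowest p in the untreated genotype comparison are named. The members and lists were chosen with earlier results of these data known.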

Additional observations from a re-analysis of the deposited data

Results flagged for a closer look

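Hdc, encoding histidine decarboxylase, was the member whose response to LPS differed between the genotypes by a test of that difference. The LPS response in Lyz2-Cre minus that in Hdac3f/f cells was -2.32 ± 0.31 on the log2 scale (edgeR quasi-likelihood test, adjusted p = 0.00125, n = 3 libraries per group). All 3 LPS-treated Lyz2-Cre libraries (25.5 to 41.4 CPM) were below all 3 LPS-treated Hdac3f/f libraries (67.8 to 99.4 CPM), whereas the untreated Lyz2-Cre libraries (6.09 to 9.14 CPM) were above the untreated Hdac3f/f libraries (3.50 to 4.14 CPM). The cells that carry this Hdc RNA were not identified in bulk libraries.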

How the results depend on the processing

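With 3 libraries per group and 9 to 73 counts per library for Cd200r3, small differences may be missed. Of the alternative values for single members, 895 kept their direction and side of the threshold, 28 lost a call, 31 gained one and 36 changed sign; among called values only Prss34 changed sign. Members called ran from 2 to 8 without LPS and 6 to 8 with LPS between genotypes, from 1 to 3 for LPS in Lyz2-Cre cells and from 1 to 3 in Hdac3f/f cells, and stayed at 1 for the interaction, when each library was left out. The LPS count in Lyz2-Cre cells, 1, was 2 with DESeq2 size factors, 3 with no filter, 2 with DESeq2's Wald test, 3 with limma voom and 2 with only the groups compared. Genes called without each library ran from 779 to 2530 without LPS, 2798 to 6004 with LPS and 530 to 1996 for the interaction, 6583 to 8004 for LPS in Lyz2-Cre and 7823 to 8750 in Hdac3f/f cells; DESeq2's Wald test called 1792 genes for the interaction, against 1160. The causes were not tested.

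With library totals alone, LPS values in Hdac3f/f cells were -0.42 for Fcer1a, -0.29 for Mcpt8, -0.0044 for Prss34, -0.13 for Kit, -0.052 for Il1rl1 and -0.61 for Cd200r3, those in Lyz2-Cre cells -0.12 for Mcpt8, -0.25 for Cpa3, -0.096 for Prss34 and -0.059 for Cd200r3, and interactions 0.16 for Mcpt8 and 0.0105 for Gata2; the medians of all genes moved with them, to 0.27 for the interaction and 0.29 between genotypes with LPS. For LPS in Hdac3f/f cells Cd200r3 was at -0.0022 with no filter and -0.033 with limma voom. The interaction of Il1rl1 was -0.027 with DESeq2 size factors, -0.028 with DESeq2's Wald test and -0.045 with limma voom. Without each library, values that changed sign ran from -0.060 to 0.67 and from -0.16 to 0.46 for Il1rl1 between genotypes without and with LPS, from -0.29 to 0.25 for Cd200r3 with LPS in Hdac3f/f cells, from -0.070 to 0.28 for Cpa3 with LPS in Lyz2-Cre cells, and, as interactions, from -0.27 to 0.078 for Mcpt8, -0.52 to 0.33 for Il1rl1, -0.15 to 0.53 for Kit and -0.024 to 0.44 for Fcer1a.

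Replicate numbers did not pair the libraries: of 18 same-numbered pairs, 5 had a correlation over 0.1 (range -0.40 to 0.22), and 4 of 12 libraries correlated best with their own number. With a replicate block the members called were 7 without LPS, 8 with LPS, 1 for LPS in Lyz2-Cre and 3 in Hdac3f/f cells and 1 for the interaction, where 1886, 4989, 7687, 8717 and 1196 of all tested genes were called in that order; Gata2 with LPS was called (adjusted p = 0.0390), Cd200r3 with LPS in Hdac3f/f cells was at -0.020 and the interaction of Il1rl1 at -0.073.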

Other observations

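Genes that act on histamine after Hdc were described by list, with 3 of 7 tested. Hnmt, encoding the methyltransferase that inactivates histamine, was lower in Lyz2-Cre cells without LPS (-0.87 ± 0.19, adjusted p = 0.0118, and 0.0507 without library 1 of untreated Lyz2-Cre) and with it (-0.69 ± 0.22, adjusted p = 0.0285). It averaged 4.32 CPM in untreated Lyz2-Cre and 7.90 CPM in untreated Hdac3f/f cells, and fell with LPS in Lyz2-Cre (-1.30 ± 0.21, adjusted p = 0.000147) and in Hdac3f/f cells (-1.49 ± 0.20, adjusted p = 2.57e-05). Hrh2, encoding the histamine H2 receptor of macrophages, rose with LPS in Lyz2-Cre cells (1.38 ± 0.22, adjusted p = 0.000154) and in Hdac3f/f cells (2.83 ± 0.23, adjusted p = 2.56e-07). The interaction of Hrh2 was -1.44 ± 0.31 (adjusted p = 0.0149), in the same direction as that of Hdc, while those of Hnmt (0.18 ± 0.29) and Slc22a3 (-1.30 ± 0.69) were not called. Of all tested genes 2.58% had a called interaction above 0 and 5.54% below. With LPS 25.2% of all tested genes were called higher and 27.7% lower in Lyz2-Cre cells, and 28.0% and 32.1% in Hdac3f/f cells. Slc22a3, a transporter that carries histamine, was at 1.15 ± 0.47 in untreated cells (adjusted p = 0.131). Hrh3 had 0 counts and Aoc1, encoding the other histamine-degrading enzyme, had 1 count over all 12 libraries.

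Il4, encoding the cytokine interleukin 4 that basophils are known to release, was chosen after its values were seen. It averaged 0.343 CPM in LPS-treated and 1.82 CPM in untreated Lyz2-Cre cells, and 0.216 CPM in LPS-treated and 1.42 CPM in untreated Hdac3f/f cells. Il4 had 230 counts over all 12 libraries and its lowest library was at 0.0779 CPM, so its levels with LPS rest on few counts. With LPS 27.7% of all tested genes were called lower in Lyz2-Cre and 32.1% in Hdac3f/f cells. Il4 was lower with LPS in Lyz2-Cre (-2.39 ± 0.36, adjusted p = 0.000111) and in Hdac3f/f cells (-2.66 ± 0.41, adjusted p = 9.43e-05), and the genotypes did not pass the test without LPS (0.36 ± 0.30, adjusted p = 0.454) or with it (0.63 ± 0.49, adjusted p = 0.402).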
